A study of Mus musculus with 6 samples.

Results

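The genes described here encode intracellular brakes on growth factor signalling, namely 7 dual-specificity phosphatases that inactivate MAP kinases (Dusp1, Dusp2, Dusp4, Dusp5, Dusp6, Dusp10 and Dusp16) and 3 Sprouty-related inhibitors (Spry1, Spry2 and Spred1). They were chosen by gene symbol, with earlier results of these data known. They are 10 of the 19938 genes tested, and each was measured by 1 probe set that names no other gene. RNA came from bone marrow derived macrophages of C57BL/6 mice, induced for 7 days with CSF1 (M-CSF) to give M(CSF1) cells or with CSF2 (GM-CSF) to give M(CSF2) cells, and was hybridised to Affymetrix Mouse Gene 1.0 ST arrays. There were 3 arrays a group, described as biological replicates. No untreated cells were included in the 6 arrays, so each value compares one inducer with the other. The sources used here do not say whether each replicate was a separate mouse or a pool, so a p-value covers the spread among these arrays only, some of which may be technical. Nor do they name the marker by which the cells were sorted.

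CSF1 acts through a receptor tyrosine kinase and CSF2 through a receptor that works with JAK2, and both pass signal through RAS, RAF and MEK to the MAP kinase ERK, and to the stress-responsive MAP kinases p38 and JNK. The dual-specificity phosphatases remove phosphate from both the threonine and the tyrosine that activate a MAP kinase. Many of their genes are themselves switched on by MAP kinase signalling, which closes a feedback loop, and Dusp1 is known in macrophages for limiting the production of inflammatory cytokines. Sprouty and Spred proteins act earlier, between receptor and RAF.

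Of the 10 genes, 5 were higher in M(CSF2) cells (Dusp4, Dusp5, Dusp6, Dusp16 and Spry1), 2 were lower (Dusp1 and Dusp2), and 3 did not pass the test (Dusp10, Spry2 and Spred1). Genes with an adjusted p under 0.05 in a limma fit over all genes are termed called, which held for 27.5% of all genes, 11.9% higher and 15.6% lower. These shares include genes with signal near background. With only the genes above the median signal tested, 5277 genes were called, beside 5488 of all 19938, so the share was larger among brighter genes. The members' median difference was 0.44 on the log2 scale, M(CSF2) minus M(CSF1), beside 0.04 for all genes. Called differences of at least 2-fold were found for 5 members (Dusp2, Dusp4, Dusp5, Dusp6 and Dusp16) and for 7.99% of all genes. In 9 members the groups did not overlap, which held for 38.9% of all genes. Fewer cells of a type and less RNA per cell cannot be told apart in such bulk samples.

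The macrophage markers fixed for the label were well above background in both groups, 3 of 8 higher and 3 lower in M(CSF2). Mean log2 signals in M(CSF1) and then M(CSF2) were 9.81 and 10.41 for Csf1r, 12.43 and 11.95 for Lyz2, and 11.88 and 10.70 for Adgre1 (F4/80). Arrays of the same group correlated at 0.995 to 0.997 over all probe sets and arrays of different groups at 0.954 to 0.959. Of 6 dendritic cell markers 3 were called higher in M(CSF2) and none lower. The log2 of their summed signal ran from 6.92 to 7.18 in M(CSF1) and from 11.08 to 11.38 in M(CSF2). The brightest of them in M(CSF2) were Itgax, with a mean of 10.84, and Ccr7, with 9.10. Of 9 mast cell and basophil markers 4 were higher, with the summed signal from 6.51 to 6.81 and from 8.99 to 9.22. Hdc was the brightest of these in M(CSF2), with a mean of 8.27. The dendritic cell genes Xcr1 and Clec9a lay at or below 3.38 on every array. So did the mast cell and basophil genes Cpa3, Mcpt4, Fcer1a, Ms4a2 and Mcpt8. Clec9a and Mcpt8 are nonetheless among the markers counted as higher. The other called dendritic cell genes, Itgax and Ccr7, lay above that level on every array and rose by 5.05 and 3.93. Zbtb46 (0.26, adjusted p = 0.064) and Flt3 (-0.08) were not called. The mast cell and basophil genes Hdc, Gata2 and Kit, above it on every array, rose by 4.43, 2.52 and 1.32. Tpsb2 (-0.08) was not called. Of 8 neutrophil markers 2 were higher, S100a8 by 2.37 and Ltf, which also lay at or below 3.38 throughout, and 1 was lower, Csf3r by 1.57. Of 6 stromal markers 1 was higher, Dcn, by 3.30. The stromal summed signal ran from 6.86 to 6.93 in M(CSF1) and from 7.72 to 8.13 in M(CSF2). None of 5 T and NK cell or 5 B cell markers was called. The value of 3.38 is the 95th percentile of 1015 olfactory receptor genes and was used as the level of genes not expressed here. The part of these cell types in the results was not tested. No member lay at or below 3.38 on any array. The group means nearest to it were those of Spry1 in M(CSF1) (3.94), Spry2 (4.02 in M(CSF1) and 4.07 in M(CSF2)) and Dusp2 in M(CSF2) (4.21).

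The 200 bases upstream of the annotated start are shown for the pair of members that fell and the pair with the largest rises, so that the differences can be read beside the regulatory sequence. They are RefSeq windows of build GRCm38.p6, written 5′ to 3′ on the strand of the gene, with matches to the motifs searched in capitals. Dusp1 lies at chr17:26508473-26508672 on the minus strand, Dusp2 at chr2:127335959-127336158, Dusp5 at chr19:53528945-53529144 and Dusp6 at chr10:99263031-99263230, the last 3 on the plus strand.
Dusp1: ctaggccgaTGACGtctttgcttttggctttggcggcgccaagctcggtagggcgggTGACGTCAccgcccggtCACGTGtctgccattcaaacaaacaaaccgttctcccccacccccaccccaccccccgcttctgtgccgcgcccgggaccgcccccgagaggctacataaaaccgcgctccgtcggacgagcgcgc
Dusp2: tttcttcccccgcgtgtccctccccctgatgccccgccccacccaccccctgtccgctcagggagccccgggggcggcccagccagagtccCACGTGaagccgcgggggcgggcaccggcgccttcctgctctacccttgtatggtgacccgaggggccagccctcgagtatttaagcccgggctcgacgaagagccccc
Dusp5: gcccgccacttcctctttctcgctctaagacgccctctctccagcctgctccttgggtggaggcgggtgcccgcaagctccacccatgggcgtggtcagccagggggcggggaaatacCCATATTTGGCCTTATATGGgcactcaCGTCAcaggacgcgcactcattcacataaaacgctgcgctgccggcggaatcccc
Dusp6: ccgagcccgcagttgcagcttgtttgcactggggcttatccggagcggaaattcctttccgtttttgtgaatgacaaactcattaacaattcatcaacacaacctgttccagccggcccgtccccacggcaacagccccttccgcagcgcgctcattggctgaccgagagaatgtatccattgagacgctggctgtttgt

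The motifs were searched on both strands, and 9 members had a window. The cAMP response element TGACGTCA was found in Dusp1 alone among them, from 143 to 136 bases before the start, and in 1.47% of all 32851 windows. Its short form, TGACG, which lies inside the full element on each strand, was found in 3 members and in 15.7% of windows. Apart from the matches inside the full element, it stood 191 to 187 bases before the Dusp1 start, 55 to 51 before that of Dusp5 and 70 to 66 before that of Dusp16. The RefSeq start used for Dusp16 lies inside the annotated gene, downstream of its outermost start, whereas the other 8 windows abut the gene's outermost start. The CArG box, the core of the serum response element, was found in Dusp5 alone of the 9, as a pair placed end to end from 82 to 73 and from 72 to 63 bases before the start, and in 1.18% of all windows. The E-box CACGTG was found in Dusp1, from 126 to 121 bases before the start, and in Dusp2, from 109 to 104, and in 5.26% of windows. The AP-1 motif TGANTCA (5.48% of windows), the STAT motif TTCNNNGAA (5.49%) and the ETS motif CCGGAAG (6.29%) had no match in these members' windows. A match is a stretch of letters and was not tested as a binding site.

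**Figure D1:**
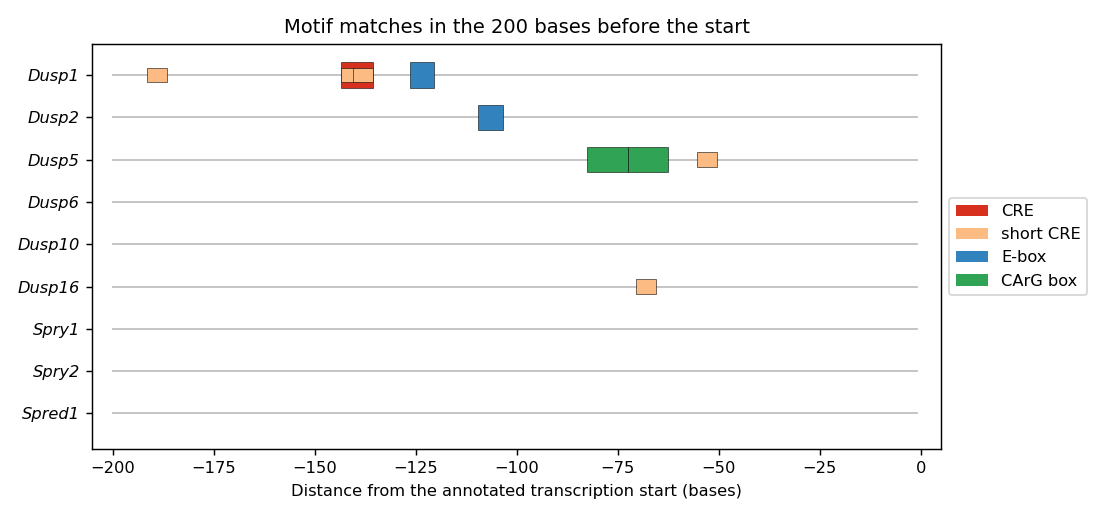
Positions of the motif matches in the 200 bases before the annotated transcription start of 9 members, in bases from the start (x axis), one line per gene and one colour per motif. The Dusp5 line carries the pair of CArG boxes and the Dusp1 line the full cAMP response element, while Dusp6, Dusp10, Spry1, Spry2 and Spred1 carry no match.

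The inducible phosphatases of the nucleus moved in both directions. Dusp5, a nuclear phosphatase that is selective for ERK, had log2 signals of 5.47, 5.09 and 4.99 on the M(CSF1) arrays and 7.62, 7.51 and 7.84 on the M(CSF2) arrays. The highest M(CSF1) value lay 2.04 below the lowest M(CSF2) value. M(CSF2) signal was 5.55 times that of M(CSF1), a rise of 2.47 in log2 units (SE 0.14, adjusted p = 1.1e-05), and the 95% interval of the ratio was 4.41 to 6.97. This was the largest difference among the 10 members. Of all genes tested, 200 rose more, and 94.2% of called genes had a smaller difference in either direction. Its promoter is the one printed above with paired CArG boxes.

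Dusp4, a nuclear phosphatase of ERK and JNK, gave 6.76, 6.03 and 5.83 in M(CSF1) and 7.57, 7.87 and 8.04 in M(CSF2). The groups did not overlap, and M(CSF1) replicate 1 stood above the other two of its group, with an SD of 0.49 in M(CSF1) beside a median SD of 0.10 over all genes. Dusp4 rose by 1.62 (SE 0.24, adjusted p = 0.0015), which is 3.07-fold in signal (95% interval 2.09 to 4.52). Over the 6 fits that left out 1 array the difference ran from 1.43 to 1.90, and it was called in all 6.

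Dusp2, known as PAC-1 and found mainly in blood cells, gave 6.13, 6.24 and 5.27 in M(CSF1) and 4.19, 4.40 and 4.04 in M(CSF2). All M(CSF1) values lay above all M(CSF2) values, and M(CSF1) replicate 3 was the lowest of its group. Dusp2 fell by 1.67 (SE 0.25, adjusted p = 0.0015), so that M(CSF1) signal was 3.19 times that of M(CSF2). Of all genes tested, 333 fell more. Its fall ran from -1.98 to -1.49 over the 6 fits without 1 array and was called in all of them.

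Dusp1, also called MKP-1, is an immediate early gene whose product acts on p38 and JNK as well as ERK. It gave 9.85, 9.81 and 9.53 in M(CSF1) and 8.80, 9.19 and 9.25 in M(CSF2). The groups did not overlap, with a gap of 0.28 between the nearest values. Dusp1 fell by 0.65 (SE 0.14, adjusted p = 0.010), with M(CSF1) signal 1.57 times that of M(CSF2). The call ended without M(CSF1) replicate 1 (-0.59, adjusted p = 0.057) and without M(CSF1) replicate 2 (-0.61, adjusted p = 0.059), and it held without any 1 of the other 4 arrays.

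**Figure D2:**
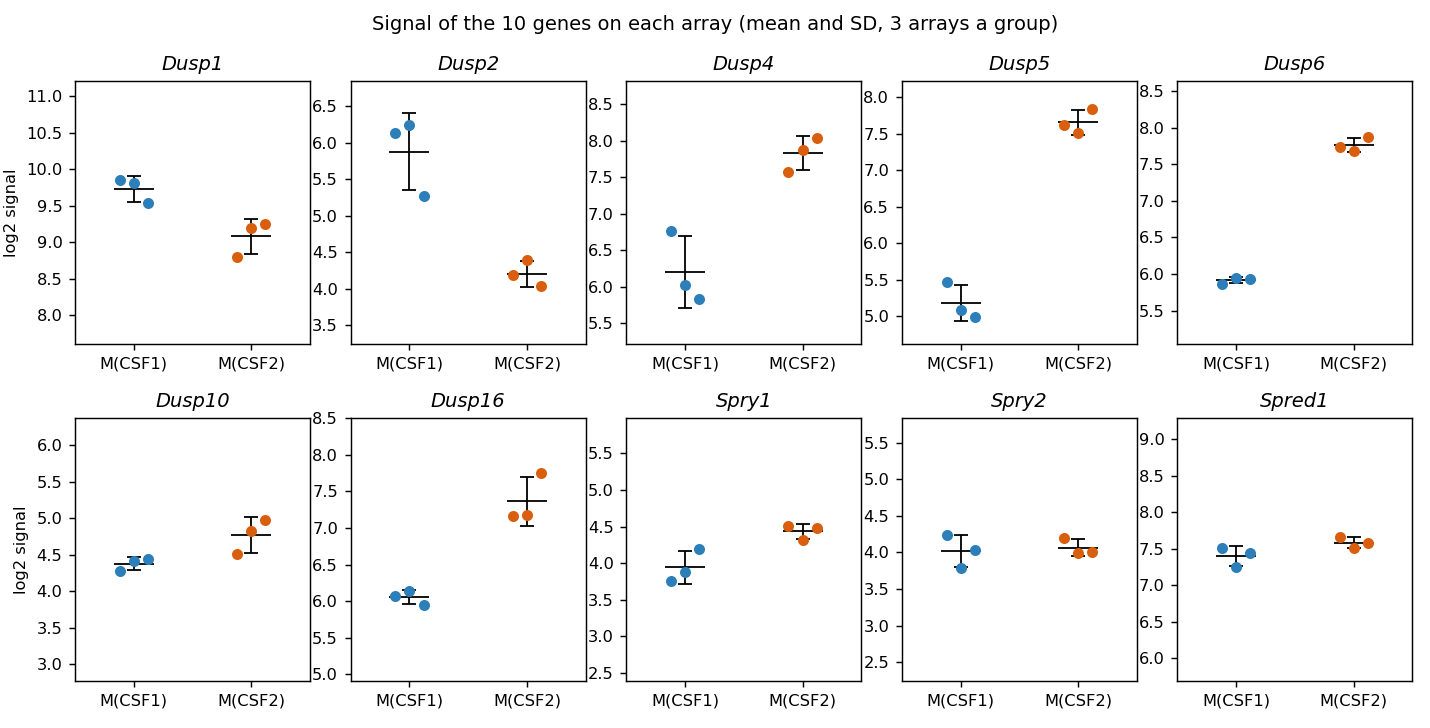
Log2 signal (y axis) of each of the 10 genes on the 3 M(CSF1) arrays (blue) and the 3 M(CSF2) arrays (orange), with the group mean as a horizontal bar and the SD as whiskers, and the same span of log2 units in every panel. Dusp5 and Dusp6 show the widest gaps between groups, Dusp1 and Dusp2 lie lower in M(CSF2), and the Spry2 values of the groups overlap.

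The cytoplasmic ERK phosphatase Dusp6, or MKP-3, had the tightest values of the called members. Its log2 signals were 5.87, 5.95 and 5.93 in M(CSF1) and 7.74, 7.68 and 7.88 in M(CSF2), with SDs of 0.04 and 0.10. The groups lay 1.74 apart at their nearest values. Dusp6 rose by 1.85 (SE 0.08, adjusted p = 2.5e-06), or 3.61-fold (95% interval 3.19 to 4.09). Over the fits without 1 array it ran from 1.80 to 1.89, the narrowest range among the 7 called members. Its relatives in the same cytoplasmic branch, Dusp7 and Dusp9, gave -0.08 (adjusted p = 0.48) and 0.15 (adjusted p = 0.39).

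The phosphatases that prefer p38 and JNK also gave unequal values. Dusp16, or MKP-7, gave 6.06, 6.14 and 5.95 in M(CSF1) and 7.16, 7.18 and 7.75 in M(CSF2), and the groups lay 1.02 apart. M(CSF2) replicate 3 was the highest. Dusp16 rose by 1.31 (SE 0.16, adjusted p = 0.00057), or 2.48-fold (95% interval 1.92 to 3.22). Without M(CSF2) replicate 3 the rise was 1.12, still called.

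Dusp10, or MKP-5, gave 4.27, 4.42 and 4.44 in M(CSF1) and 4.50, 4.83 and 4.98 in M(CSF2). The nearest values of the groups were 0.06 apart. The difference of 0.39 (SE 0.13, 95% interval 0.10 to 0.68) did not pass after adjustment (adjusted p = 0.054). It passed without M(CSF2) replicate 1 (0.52, adjusted p = 0.011) and, with the same difference, where dim genes were left out before the adjustment (adjusted p = 0.033 above the olfactory receptor level). Dusp8, of the same branch, gave 0.16 (adjusted p = 0.28).

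Of the 3 Sprouty-related genes 1 was called. Spry1, which restrains receptor tyrosine kinase signalling to ERK, gave 3.76, 3.88 and 4.19 in M(CSF1) and 4.51, 4.32 and 4.48 in M(CSF2). The groups were 0.13 apart at their nearest values. Spry1 rose by 0.49 (SE 0.12, adjusted p = 0.018), or 1.41-fold (95% interval 1.16 to 1.71). It was called in 2 of the 6 fits without 1 array. The adjusted p was 0.067 without M(CSF1) replicate 1, 0.083 without M(CSF1) replicate 2, 0.082 without M(CSF2) replicate 1 and 0.065 without M(CSF2) replicate 3.

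Spry2, a close relative of Spry1, gave 4.23, 3.79 and 4.04 in M(CSF1) and 4.20, 3.99 and 4.01 in M(CSF2). These groups overlap, and the difference was 0.05 (adjusted p = 0.83), with a 95% interval of -0.24 to 0.33. That interval leaves out the estimated differences of the called members, but it overlaps the 95% interval of Spry1, 0.21 to 0.77. Spred1, which brings the RAS inhibitor neurofibromin to the membrane, gave 7.51, 7.25 and 7.44 in M(CSF1) and 7.67, 7.51 and 7.57 in M(CSF2). Its nearest values were 0.0054 apart, and the difference of 0.19 did not pass (adjusted p = 0.19, 95% interval -0.02 to 0.40). With 3 arrays against 3, an exact permutation test of 1 gene cannot go below a 2-sided p of 0.1. That value was reached by the 9 members whose groups did not overlap, and Spry2 gave a p of 1.

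**Figure D3:**
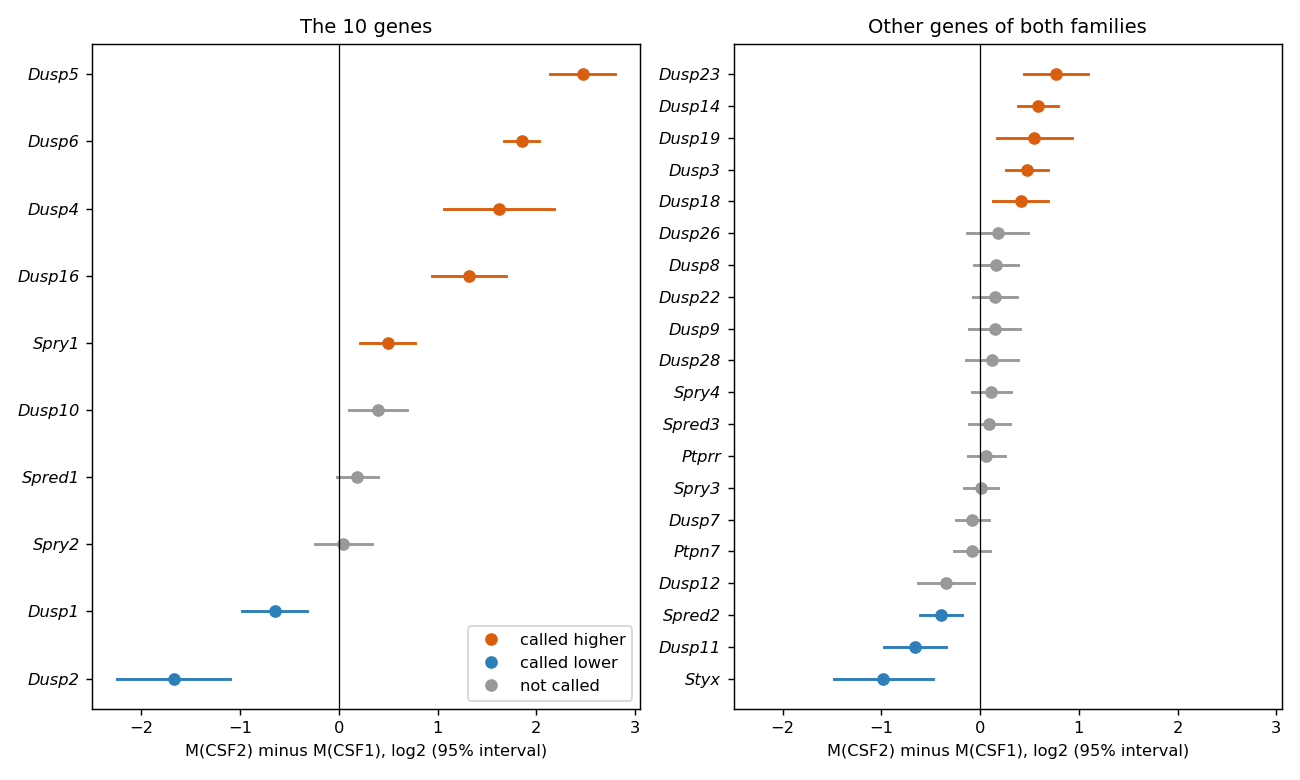
Difference in log2 signal, M(CSF2) minus M(CSF1), with its 95% interval (x axis), ordered by difference. The 10 genes are on the left, and the listed other phosphatase, Sprouty and Spred genes on the right. The rises of Dusp4, Dusp5, Dusp6 and Dusp16, from 1.31 to 2.47, exceed the largest called rise among the listed relatives, 0.77 for Dusp23. Members and lists were chosen with earlier results of these data known, so this contrast is a description and was not tested.

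Other MAP kinase phosphatase, Sprouty and Spred genes were described from lists drawn up by function, with earlier results of these data known. The phosphatase list does not cover every gene of its family. Of 16 other MAP kinase phosphatases and atypical relatives, 5 were higher, 2 lower and 9 not called, with a median difference of 0.15, and none was called at 2-fold or more. With array medians centred the count was 3 higher and 3 lower, and after quantile normalization 5 and 3. Dusp23 (0.77), Dusp14 (0.59) and Dusp19 (0.55) rose most, and the pseudophosphatase gene Styx (-0.98) and Dusp11 (-0.66), an RNA phosphatase, fell. Styx was also -0.87 by a second probe set and 0.22 by the third, whose mean signal of 2.36 lay below the olfactory receptor level of 3.38. Without M(CSF1) replicate 1 Styx was no longer called (adjusted p = 0.066). Dusp19 lost its call without M(CSF1) replicate 2 (adjusted p = 0.14), M(CSF1) replicate 3 (0.12), M(CSF2) replicate 1 (0.16) or M(CSF2) replicate 2 (0.15), and with array medians centred (0.059). Of Spry3, Spry4, Spred2 and Spred3, Spred2 alone was called, lower by 0.40 (adjusted p = 0.013), and a second probe set gave -0.71. That call ended without M(CSF1) replicate 1 (adjusted p = 0.056) or replicate 2 (adjusted p = 0.060).

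Set against the cascade that these phosphatases restrain, 4 of 17 measured genes of the ERK core were higher, 5 lower and 8 not called, with a median of -0.04 that became 0.04 after quantile normalization. The RAS exchange factor genes Sos1 and Rasgrp1 fell by 2.86 and 2.76, and the adaptor gene Gab2 by 0.90. Rasgrp4 (0.63), the adaptor gene Shc1 (0.59) and the MEK gene Map2k1 (0.50) rose. These 3 rises lost their call under ordinary least squares (adjusted p = 0.059 for Rasgrp4, 0.064 for Shc1 and 0.066 for Map2k1), and the 3 falls kept theirs.

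Other brakes on RAS and RAF had 7 of 15 genes lower and 3 higher, with a median of -0.25. The RAS GTPase activator Rasa1 (-0.96), the adaptor Dok3 (-0.88) and the ubiquitin ligase Cblb (-0.58) fell, and Errfi1 (0.75), an inhibitor of EGF receptors, Rasal3 (0.63) and the RAF inhibitor Pebp1 (0.41) rose. Called genes in this list numbered 6 without M(CSF1) replicate 1, 6 without M(CSF1) replicate 2 and 5 without M(CSF2) replicate 1, beside 10 with all arrays. Cblb and Errfi1 were among those that lost their call, Cblb without M(CSF1) replicate 2 (adjusted p = 0.052) or M(CSF2) replicate 1 (0.052), and Errfi1 without M(CSF1) replicate 1 (0.072), M(CSF1) replicate 3 (0.055) or M(CSF2) replicate 1 (0.070).

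The p38 and JNK cascades, which Dusp1, Dusp10 and Dusp16 act on, had 9 of 19 measured genes lower and 4 higher, with a median of -0.19. The p38 beta gene Mapk11 fell by 2.40. On the M(CSF2) arrays it gave 3.15, 4.08 and 3.51, the first of them under the level of olfactory receptor genes. Map2k6, a kinase of p38, fell by 1.36. Its M(CSF2) arrays all lay under the level of olfactory receptor genes, so the fold is a bound, at least 2.36-fold lower. The stress sensor gene Gadd45b fell by 1.18. The p38 substrate kinase gene Mapkapk3 rose by 2.19, the p38 kinase gene Map2k3 by 1.29 and Mapk13 by 0.31. The call of Mapk13 ended without M(CSF1) replicate 1 (adjusted p = 0.065), M(CSF1) replicate 2 (0.056) or M(CSF2) replicate 3 (0.053). Called genes in this list numbered 7 without M(CSF1) replicate 2, beside 13 with all arrays.

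Genes that ERK signalling is known to switch on, as it does Dusp5, Dusp6 and Spry1, were called in 17 of 20 cases, 10 higher and 7 lower, with a median of 0.26. The urokinase receptor gene Plaur rose by 4.61, the zinc finger gene Egr2 by 3.59 and Ier3 by 1.92. Against these rises and that of Dusp6, the ETS factor gene Etv5 fell by 1.90 (by 1.86 on its second probe set), the cyclin gene Ccnd1 by 1.28 and Myc by 1.13. These lists share the 6 arrays with the members, and nothing particular to a list follows from its count.

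**Figure D4:**
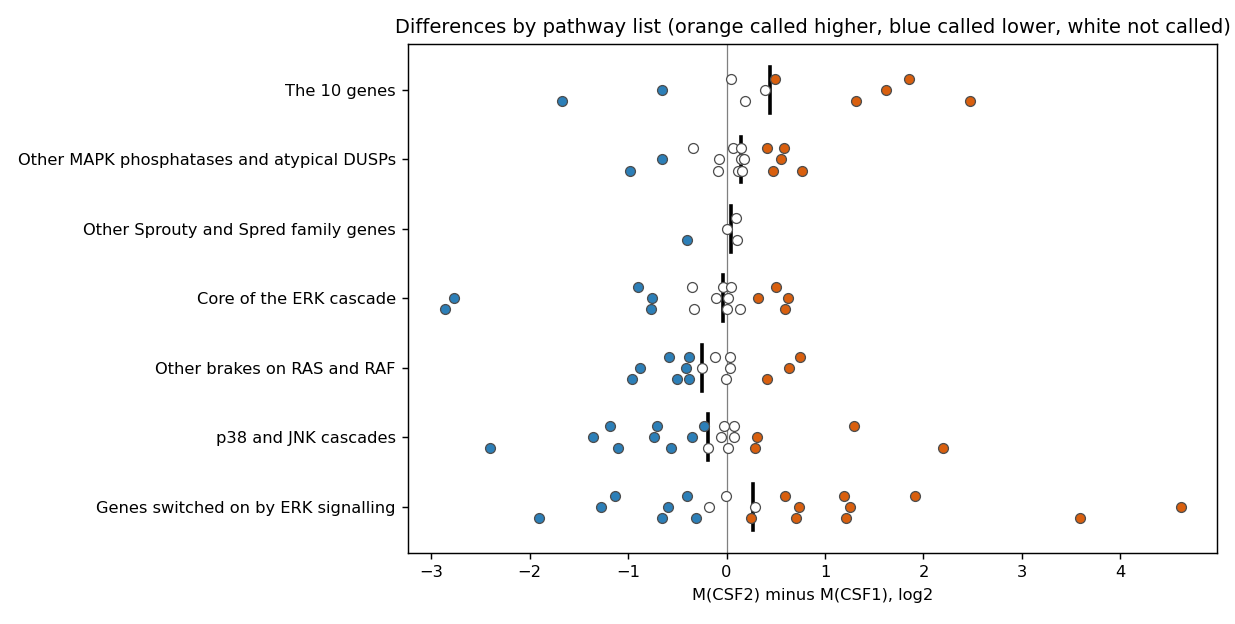
Difference in log2 signal, M(CSF2) minus M(CSF1) (x axis), of each measured gene, by list (rows), with the list median as a vertical bar and filled points for called genes. The members have 5 rises and 2 falls, and the lists of RAS and RAF brakes and of p38 and JNK genes have more called falls (7 and 9) than rises (3 and 4). Among all genes, too, more were called lower (15.6%) than higher (11.9%).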

How the data were processed

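The deposited table held 1 column of log2 values per array, made by the authors, for 28941 probe sets. The submitters' processing notes name MAS5. Background correction, normalization and probe summary are not given in the sources used here. Base 2 was inferred from the range, 1.48 to 13.27. The platform annotation gave gene names, and symbols were updated by Entrez identifier against RefSeq (GRCm38.p6). The 21789 probe sets with exactly 1 gene were kept, the brightest standing for its gene. This gave 19938 genes, with no filter.

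Differences were fitted with limma 3.58.1 (lmFit, eBayes; R 4.3.3) as 2-sided tests, with Benjamini-Hochberg adjustment across the whole gene table. The procedure was tested on simulated data with independent normal noise and added shifts, so noise shared between arrays was not covered. Folds are ratios of deposited signals and can understate dim genes. The number of arrays limits precision. Alternatives were other normalizations, filters, probe set rules, variance models, a replicate block and leaving out each array.

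The members and lists were chosen with earlier results of these data known. All members were named, and from each longer list up to 3 called genes in each direction; markers are given mostly as counts. Promoter windows were searched with Python 3.11.15.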

Additional observations from a re-analysis of the deposited data

How the results depend on the processing

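The rises of Dusp4, Dusp5, Dusp6 and Dusp16 and the fall of Dusp2 kept their direction and their call under all 15 alternatives. Ordinary least squares, which does not share variance between genes, ended the calls of Dusp1 (-0.65, adjusted p = 0.084) and Spry1 (0.49, adjusted p = 0.10), left 5 members called, and gave 2 called genes among the other phosphatases, 0 among the other Sprouty and Spred genes, 5 in the ERK core and 5 among the RAS and RAF brakes. It also ended the calls of Styx, Dusp11, Dusp23, Dusp19, Spred2, Cblb and Errfi1. Dusp10 became called after quantile normalization (0.38, adjusted p = 0.046), with genes above the median signal (0.39, adjusted p = 0.025) or above the olfactory receptor level (adjusted p = 0.033), and with the replicate block (0.39, adjusted p = 0.026). Spry1 and Spry2 could not be tested above the median signal, which removed them.

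Without 1 array, the genes called ran from 4254 to 5490 and the members called from 5 to 7. Differences ran from -0.75 to -0.51 for Dusp1, 0.29 to 0.52 for Dusp10, 0.40 to 0.62 for Spry1 and -0.071 to 0.15 for Spry2, which reversed in 2 fits. Called genes ran from 0 to 1 in the other Sprouty and Spred list, 5 to 10 in the RAS and RAF brakes and 7 to 11 in the p38 and JNK list.

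Correlations of deviations between the groups were 0.0039, -0.044 and -0.25 for arrays that share replicate number 1, 2 and 3. For arrays of different numbers they ran from -0.19 to 0.21. Deviations within 3 arrays depend on one another, so these values cannot decide whether the replicate numbers paired the samples. With the replicate block 5072 genes and 8 members were called, beside 5488 and 7. Marker genes near 0 that were not called reversed: Cd8a (-0.041 after quantile normalization, -0.029 with medians centred, -0.12 to 0.15 without 1 array), Pax5 (-0.015, -0.025, and -0.12 to 0.13), Cd3g (-0.092 to 0.017 without 1 array) and Col1a1 (-0.15 to 0.12).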
